A study of Mus musculus with 6 samples.

Results

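Crypt base and reserve stem cell markers are a set of 10 genes that mark the dividing stem cells at the bottom of intestinal crypts (Lgr5, Olfm4, Ascl2, Axin2, Smoc2, Nav1, Igfbp4 and Rgmb) or the more quiescent cells proposed as a reserve (Hopx and Bmi1). They were taken by symbol, each through the brightest of its probes by mean over all arrays. All 10 were measured, out of 19057 genes, through 21 probes, and 8 of the 10 lay above the upper quartile of all values. The samples were mouse small intestinal organoids, epithelial structures grown from crypts. The Snai1 knockout group was 3 samples of the strain Villin-Cre, Snai1fl/fl, and the control group was 3 samples of the strain Villin-Cre. Both groups carried the Cre transgene and both received tamoxifen at 0.5 µM over the 24 hours before harvest, so neither shows organoids without Cre or without tamoxifen. The Villin promoter drives Cre in the intestinal epithelium, so the deletion is aimed at epithelial cells, stem cells included, and its extent was not measured here. The labels do not say whether samples of a group came from separate mice or cultures, so the p-values cover the scatter of these 6 samples alone, part of which may be technical. By the series title, the comparison asks how Snai1, a zinc-finger repressor, bears on lineage choice and on the upkeep of stem cells.

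Stem cells at the crypt base depend on Wnt signals, which stabilise beta-catenin and turn on target genes through TCF/LEF factors. R-spondin, which is added to organoid cultures, strengthens that signal by binding Lgr5 and its relatives. Their daughters divide rapidly and become absorptive enterocytes or secretory goblet, Paneth, enteroendocrine and tuft cells, while Hopx and Bmi1 have been used to mark cells above the crypt base that can replace lost stem cells.

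Values are normalised intensities on a log scale taken as log2, with a median of 7.87 close to the lowest value, so dim genes are squeezed together and their differences understated. The correlation between any pair of arrays lay between 0.994 and 0.997. The targeted gene read at the dim end, with a Snai1 difference of 0.00 ± 0.03 (SE; adjusted p = 0.999 by limma), and does not check the labels. Enterocyte genes were present, 12 of 15 measured ones lying above the upper quartile of 8.27, whereas none of 10 mesenchymal and endothelial markers and none of 7 immune markers did. Changes in the number of cells of a type and in RNA per cell cannot be told apart in such bulk samples.

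No marker passed the test across all genes. Of the 10, 9 had a higher mean in knockout organoids, against 49.3% of all genes and 51.4% of genes above the upper quartile. The median difference over the 10 was 0.18 on the log2 scale, with single genes from -0.19 (Igfbp4) to 0.45 (Olfm4), against -0.00057 over all genes. By limma 0 of 10 had an adjusted p under 0.05, where 25 of 19057 genes, or 0.131%, did. With the replicate number as a block, again 0 of 10 passed, against 0.0472% of all genes. At an unadjusted p under 0.05 there were 4 of 10 (Olfm4, Nav1, Hopx and Rgmb), against 7.22% of all genes and 14.9% of those above the upper quartile, and with the block 6 of 10, against 10.9% and 25.8%. In 4 of 10 (the same 4 genes) all knockout values exceeded all control values, and in 0 of 10 all were lower, against 6.20% of all genes in the first direction and 12.0% in either. The markers were named with earlier results of these data known, so these shares are descriptions.

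**Figure D1:**
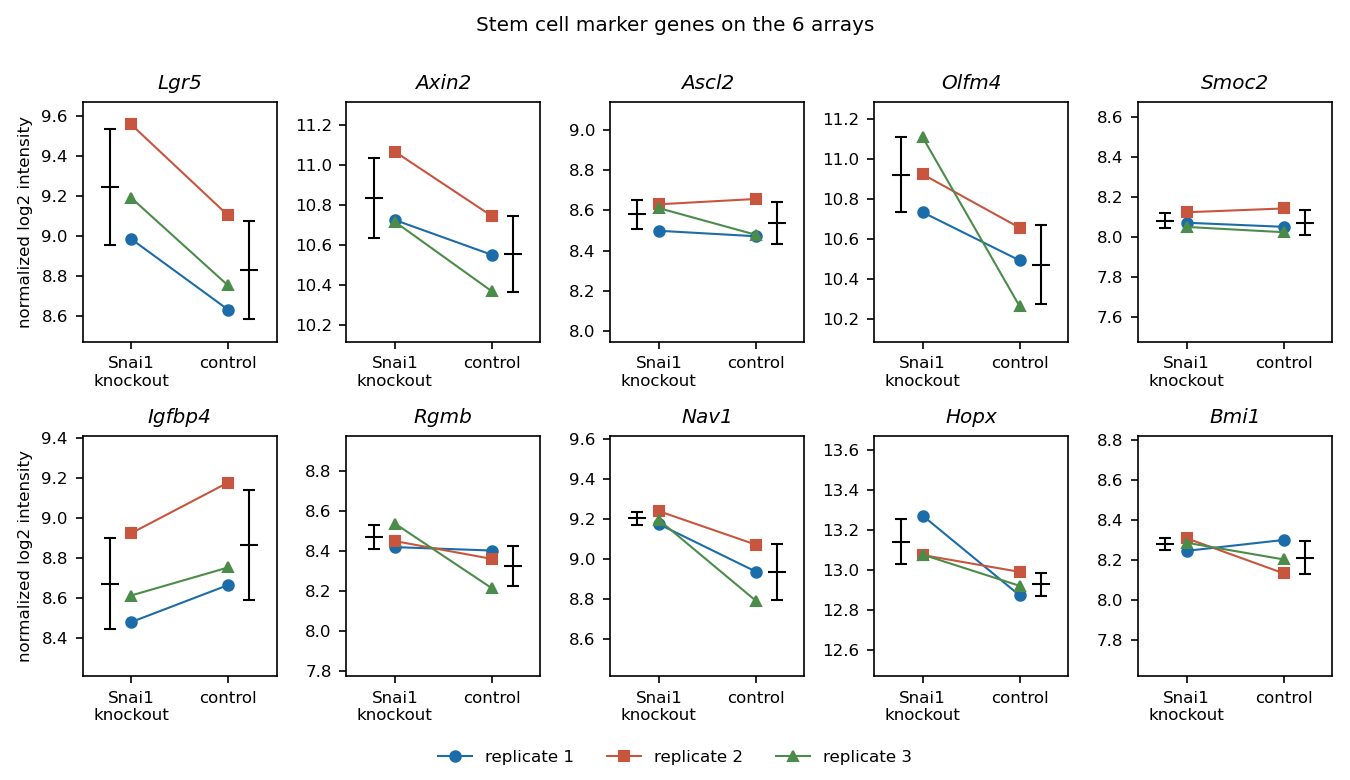
Normalised log2 intensity (vertical axis, each panel spanning the same height) of the 10 markers on knockout (left) and control (right) arrays, with lines joining arrays of the same replicate number and black bars for the mean ± SD (n = 3 each). Knockout values of Olfm4, Nav1, Hopx and Rgmb lie above all control values, and replicate 2 is highest in both groups for Lgr5, Axin2, Ascl2, Smoc2, Igfbp4 and Nav1.

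Start-proximal sequence is shown first for 4 markers, because Snai1 acts by binding E-boxes and the Wnt-driven genes are read through TCF/LEF sites. RefSeq promoters (GRCm38.p6) were found for 8 of the 10 markers, in 11 windows of 250 bases before a transcript's start. None was found for Lgr5 or Smoc2, so these were not searched. Capitals mark the E-box bound by Snail factors, CAGGTG on either strand, and none of the 11 windows held the TCF/LEF core CTTTGA on either strand. The E-box lay in 2 windows, 1 each for Ascl2 and Rgmb, and in 17.2% of 32851 mouse promoter windows of the same length, while the TCF/LEF core lay in 13.8%. The other windows of Rgmb, from other transcript starts, held neither, and one of them overlaps the window shown. Olfm4 and Axin2 are shown as markers without either motif in this window.
Ascl2, chr7:142969265-142969514, minus strand: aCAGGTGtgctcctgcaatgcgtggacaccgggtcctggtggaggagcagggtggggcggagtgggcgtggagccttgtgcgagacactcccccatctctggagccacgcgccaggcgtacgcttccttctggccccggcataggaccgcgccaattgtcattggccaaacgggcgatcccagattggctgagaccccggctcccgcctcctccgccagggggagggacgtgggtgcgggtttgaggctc
Rgmb, chr17:15831247-15831496, minus strand: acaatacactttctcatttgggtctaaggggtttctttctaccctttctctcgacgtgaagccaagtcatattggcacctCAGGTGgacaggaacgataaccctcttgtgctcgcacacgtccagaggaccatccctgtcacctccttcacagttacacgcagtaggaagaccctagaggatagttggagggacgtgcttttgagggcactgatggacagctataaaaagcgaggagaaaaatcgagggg
Axin2, chr11:108920099-108920348, plus strand: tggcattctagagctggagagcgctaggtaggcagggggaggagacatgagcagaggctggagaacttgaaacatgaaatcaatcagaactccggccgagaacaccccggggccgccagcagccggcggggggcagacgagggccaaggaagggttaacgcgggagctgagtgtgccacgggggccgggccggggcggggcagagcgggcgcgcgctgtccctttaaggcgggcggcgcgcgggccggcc
Olfm4, chr14:80000052-80000301, plus strand: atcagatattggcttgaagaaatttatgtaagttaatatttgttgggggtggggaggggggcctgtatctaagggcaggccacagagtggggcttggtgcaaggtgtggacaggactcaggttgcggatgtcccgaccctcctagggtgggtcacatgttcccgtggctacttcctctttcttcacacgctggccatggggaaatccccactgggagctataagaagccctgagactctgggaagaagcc
The E-box begins 249 bases before the start in Ascl2 and 170 bases before it in Rgmb. A match describes these letters only, and binding was not measured. Of the markers with an E-box, Rgmb had a knockout minus control difference of 0.14 and Ascl2 of 0.04. Markers whose windows held none ran from -0.19 (Igfbp4) and 0.07 (Bmi1) over 0.21 (Hopx), 0.27 (Nav1) and 0.28 (Axin2) to 0.45 (Olfm4). A relation between the motif and these differences was not tested.

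Among the genes of the Wnt and R-spondin response, Lgr5, the R-spondin receptor that defines these stem cells, read 8.99, 9.56 and 9.19 on knockout arrays 1 to 3, against 8.63, 9.10 and 8.75 on control arrays 1 to 3. The groups overlap, because control array 2 exceeds knockout array 1, yet the knockout array was the higher one in each pair of the same number. The pair differences were 0.35, 0.45 and 0.44, the narrowest spread among markers that were higher in 3 of 3 pairs. The mean difference was 0.42 ± 0.18 (SE; 1.33-fold, 95% interval -0.03 to 0.86, adjusted p = 0.73 by limma). With the replicate block the standard error was 0.03 and the interval 0.33 to 0.50, which put Lgr5 at rank 22 of 19057 by p, still short of the threshold (adjusted p = 0.069 by limma). The blocked fit leaves 2 residual degrees of freedom, against 4 without the block, and takes as pairs arrays that the labels do not pair. Without knockout array 2 the unblocked difference was 0.26.

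Axin2, a scaffold of the complex that degrades beta-catenin and itself a Wnt target, read 10.73, 11.07 and 10.72 on knockout arrays, against 10.55, 10.75 and 10.37 on control arrays. The groups overlap at control array 2, and the pair differences were 0.17, 0.32 and 0.35. The mean difference was 0.28 ± 0.13 (SE; 1.22-fold, 95% interval -0.04 to 0.60, adjusted p = 0.75). The block lowered the standard error to 0.04, with an adjusted p of 0.16, and without knockout array 2 the unblocked difference was 0.17.

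Ascl2, the transcription factor that switches on the stem cell programme together with beta-catenin, did not follow that pattern. It read 8.50, 8.63 and 8.61 on knockout arrays, against 8.47, 8.66 and 8.48 on control arrays, with overlapping groups. The difference was 0.04 ± 0.06 (SE; 95% interval -0.11 to 0.20, adjusted p = 0.97), and pair 2 ran the other way at -0.03. With 1 array left out it ran from 0.01 (without control array 1) to 0.11 (without control array 2). Its next probe, also above the upper quartile, had a difference of -0.03, so its probes differ in sign.

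Of the secreted products, Olfm4, a glycoprotein abundant in crypt base cells, had the largest mean difference of the 10 with all 6 arrays. It read 10.73, 10.92 and 11.11 on knockout arrays, against 10.49, 10.65 and 10.26 on control arrays. The groups do not overlap. The difference was 0.45 ± 0.13 (SE; 1.37-fold, 95% interval 0.13 to 0.77, adjusted p = 0.48). Pair 3 carried much of it, at 0.84 against 0.24 and 0.27 in the other pairs, and without pair 3 the blocked difference was 0.25 (adjusted p = 0.55), below that of Lgr5 at 0.40. The Lgr5 difference was also the larger without knockout array 3 (0.44 against 0.36), without control array 3 (0.38 against 0.35) and without control array 2 (0.55 against 0.54). The block did not narrow the error for Olfm4 (SE 0.13 in both fits).

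Igfbp4, which binds insulin-like growth factors, was the only marker with a lower knockout mean. It read 8.48, 8.92 and 8.61 on knockout arrays, against 8.66, 9.18 and 8.75 on control arrays. The groups overlap because array 2 of each group was far above the other arrays, while the knockout array was lower in all 3 pairs, with differences of -0.19, -0.25 and -0.14. The difference was -0.19 ± 0.17 (SE; 95% interval -0.61 to 0.22, adjusted p = 0.93), and with the block the standard error was 0.03 (interval -0.28 to -0.11, adjusted p = 0.17). Without the block, the difference was -0.04 without control array 2, -0.10 without knockout array 1 and -0.32 without knockout array 2. Its second probe gave -0.14, with pair differences of -0.13, -0.20 and -0.09.

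Smoc2, a matricellular protein gene of crypt base cells, differed least of the 10. It read 8.07, 8.13 and 8.05 on knockout arrays, against 8.05, 8.14 and 8.03 on control arrays. The difference was 0.01 ± 0.04 (SE; 95% interval -0.09 to 0.10, adjusted p = 0.998), and its single probe lay below the upper quartile, where differences are understated.

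Nav1, a microtubule-associated protein gene, had the lowest unadjusted p of the 10 without the block. It read 9.17, 9.24 and 9.19 on knockout arrays, against 8.94, 9.07 and 8.79 on control arrays. The groups do not overlap, and the knockout arrays lay within 0.065 of each other, while the control arrays spanned 0.28. The difference was 0.27 ± 0.07 (SE; 1.21-fold, 95% interval 0.10 to 0.44, adjusted p = 0.42). Its second probe showed the same separation at 0.22 ± 0.06, while the dimmer pair of probes gave 0.07 and 0.05.

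Rgmb, a co-receptor for bone morphogenetic proteins, read 8.42, 8.45 and 8.54 on knockout arrays, against 8.40, 8.36 and 8.21 on control arrays. The groups do not overlap, but the gap is narrow and pair 1 differed by only 0.02, against 0.09 and 0.32 in pairs 2 and 3. The difference was 0.14 ± 0.06 (SE; adjusted p = 0.69 by limma), without control array 3 it was 0.09, and without pair 3 the blocked difference was 0.05. Its other probes, below the upper quartile, gave 0.06 and -0.004, both with overlapping groups.

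Of the reserve markers, Hopx, a small homeodomain protein that does not bind DNA, was among the brightest genes of the array, its probe exceeding 98.9% of all probes. It read 13.27, 13.08 and 13.08 on knockout arrays, against 12.87, 12.99 and 12.92 on control arrays. The groups do not overlap, and knockout array 1 stood highest. The difference was 0.21 ± 0.06 (SE; 1.16-fold, 95% interval 0.06 to 0.37, adjusted p = 0.50), with pairs at 0.40, 0.08 and 0.16. Leaving out knockout array 1 left 0.15.

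Bmi1, a subunit of Polycomb repressive complex 1, read 8.25, 8.31 and 8.29 on knockout arrays, against 8.30, 8.13 and 8.20 on control arrays. The groups overlap, pair 1 ran at -0.05, and the difference was 0.07 ± 0.05 (SE; 95% interval -0.04 to 0.18, adjusted p = 0.88). Without control array 2 it was 0.03 and without control array 1 it was 0.11. Its single probe lay just under the upper quartile.

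**Figure D2:**
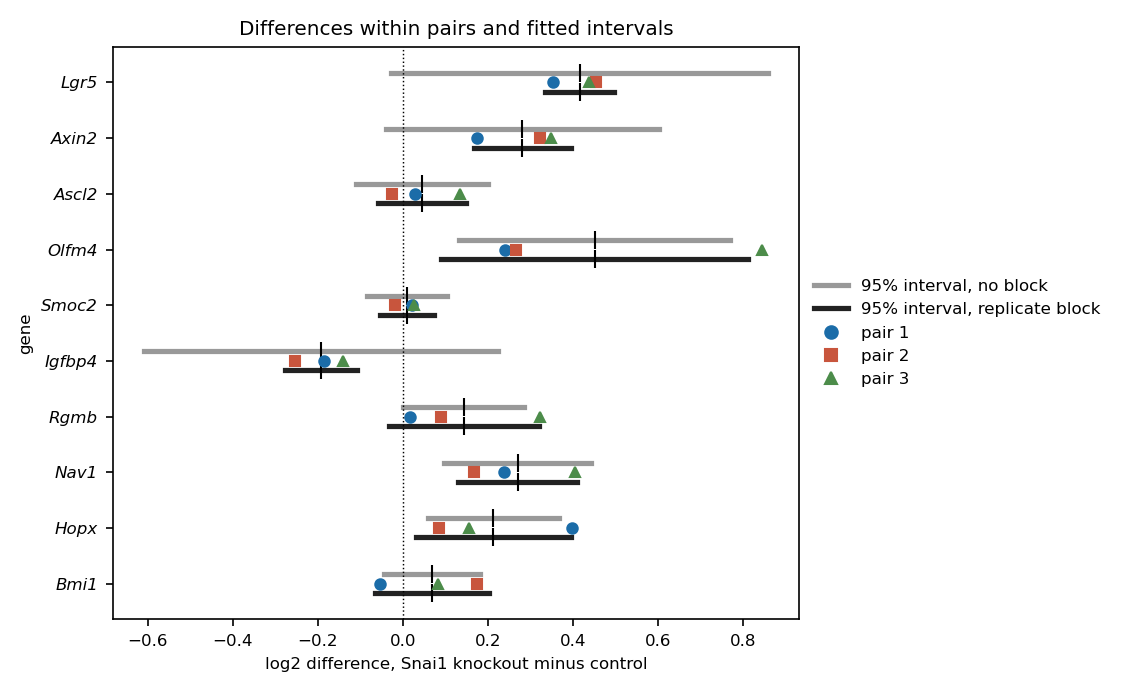
Log2 difference, Snai1 knockout minus control (horizontal axis), for each marker (rows): coloured symbols are the 3 pairs of the same replicate number, bars the 95% intervals of the fits without (grey) and with (black) the replicate block, and ticks the mean. Lgr5, Axin2 and Igfbp4 have black bars far shorter than the grey ones, while the symbols of Olfm4, Hopx and Rgmb are spread widely.

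The 6 arrays varied in different ways from marker to marker. For Lgr5 and Igfbp4 the fit without the block had a standard error 5.93 and 5.45 times that of the blocked fit, and for Axin2 3.08 times. For Olfm4, Hopx, Bmi1 and Rgmb that ratio was between 0.875 and 0.966, so the block did not narrow their error. Replicate 2 was the highest array of both groups for 6 of 10 markers, against 12.8% of all genes and 15.1% of those above the upper quartile. In pairs 1 to 3, 8, 7 and 9 of the 10 markers were higher in the knockout array, with median differences of 0.10, 0.13 and 0.24. Pair 3 gave the highest of the 3 differences for 7 markers. In all, 6 of 10 markers were higher in 3 of 3 pairs, as were 15.7% of all genes and 20.8% of those above the upper quartile, and 1 of 10 was lower in all 3, as were 15.2% and 17.5%.

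A gene's direction is that of its brightest probe, so only its further probes above the upper quartile can show agreement. Such probes of Nav1 and Igfbp4 shared the direction of their gene, and that of Ascl2 did not. Of the 21 probes, 12 lay above the upper quartile, and 9 of these had a higher and 3 a lower knockout mean, the 3 being both probes of Igfbp4 and the next probe of Ascl2. The other 9 probes differed by at most 0.068 in either direction. The dim probe of Lgr5 differed by 0.01, that of Olfm4 by 0.03 and that of Hopx by 0.02. The dim probes of Rgmb differed by 0.06 and -0.004. Lgr5, Olfm4, Hopx and Rgmb thus each rest on a single probe, as do Axin2, Smoc2 and Bmi1, which have only 1. None of the 21 passed over all 45281 probes by limma, where 40, or 0.0883%, did.

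**Figure D3:**
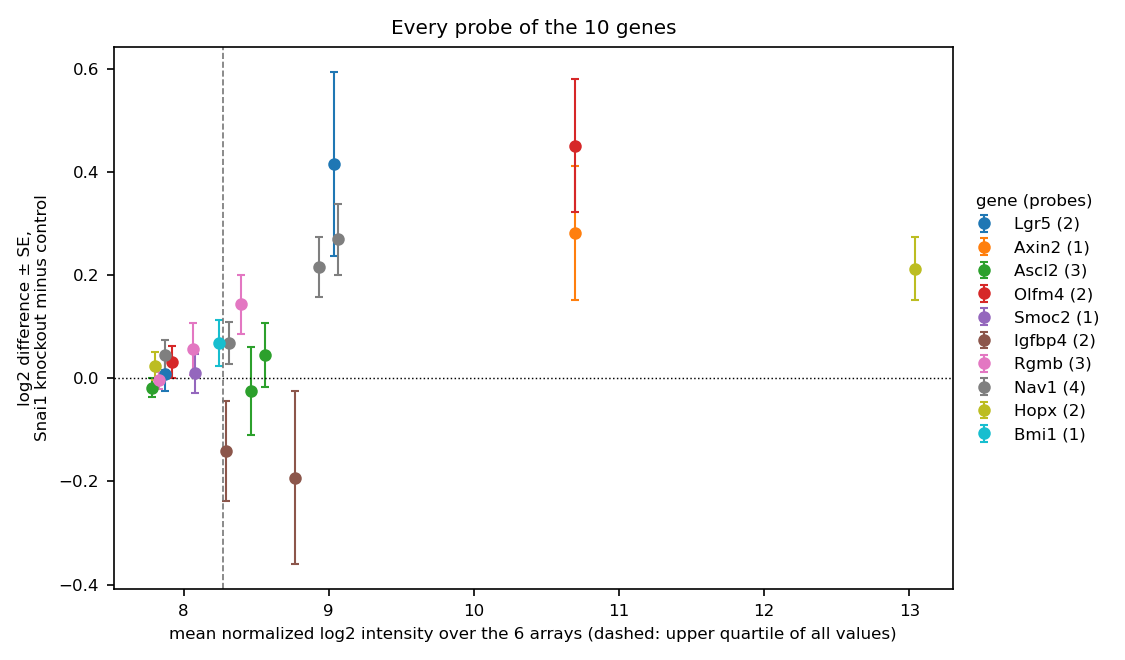
Log2 difference ± SE, Snai1 knockout minus control (vertical axis), of all 21 probes of the 10 markers against their mean normalised log2 intensity over the 6 arrays (horizontal axis). Probes left of the dashed upper quartile (8.27) lie within 0.068 of 0, and of the brighter ones only both Igfbp4 probes and 1 Ascl2 probe lie below 0.

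Further crypt base genes were read from a longer list of markers of these cells. Of 26 measured genes of that list, 13 lay above the upper quartile. A higher knockout mean was seen for 17 and a lower one for 9, with a median difference of 0.04, and 0 passed by limma in either direction. At an unadjusted p under 0.05 there were 5 of 26, against 7.22% of all genes and 14.9% of those above the upper quartile. With the block there were 7 of 26, against 10.9% and 25.8%. Groups did not overlap for 2 genes that were higher and 3 that were lower. In either direction that held for 12.0% of all genes and 14.9% of those above the upper quartile. Clca3b, a chloride channel accessory gene whose probe may also see related genes, averaged 12.2 on knockout and 11.8 on control arrays, a difference of 0.33 ± 0.10 (SE; adjusted p = 0.51). Its pairs were at 0.16, 0.19 and 0.66, with pair 3 again the highest. Scn2b, a sodium channel subunit whose probe lay below the upper quartile, differed by 0.19 with even pairs of 0.17, 0.20 and 0.21. Noxa1, an activator of NADPH oxidase, differed by -0.13 at the dim end of the scale.

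Among 13 measured Wnt targets beside the markers, 6 of which are also in the crypt base list, 10 were higher and 3 lower, with a median of 0.03 and 0 past the threshold (2 of 13 at an unadjusted p under 0.05, against 7.22% of all genes and 14.9% of those above the upper quartile). The groups did not overlap for 1 of the 13, Lef1, which was lower, against 12.0% of all genes in either direction. Zfp703, a transcriptional repressor gene, differed by 0.19 ± 0.08 and the adhesion receptor Cd44 by 0.12 ± 0.05 (SE; adjusted p = 0.69 and 0.70), while Lef1, a partner of beta-catenin, lay near the bottom of the scale with -0.06. In a list of 9 further reserve or revival stem cell genes, 8 were higher and 1 lower, with a median of 0.04 and 0 past the threshold. At an unadjusted p under 0.05 there were 0, and with the block 1, against 10.9% of all genes and 25.8% of those above the upper quartile. Lrig1, a brake on growth factor receptors, differed by 0.21 ± 0.09 (adjusted p = 0.73 by limma) and the keratin Krt19 by -0.09. The tuft cell kinase Dclk1, whose probe lay below the upper quartile, differed by 0.08.

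Markers of the other cells of the epithelium were set beside these values. Averaged over the list, enterocyte genes read 10.94, 10.81 and 11.13 on knockout arrays 1 to 3, against 11.08, 10.78 and 11.18 on control arrays 1 to 3. Replicate 2 was thus lowest in both groups, where the average of the 10 stem cell markers was highest, at 9.63 on the knockout and 9.50 on the control array. Of 15 enterocyte genes, 10 had a lower knockout mean (median -0.02), and Apoc3, an apolipoprotein gene, differed by -0.25 (adjusted p = 0.66). Of the 15, 0 were higher in all 3 pairs and 6 were higher in none, Apoc3 among them with 0.00 in pair 1. Those shares were 15.7% and 15.2% of all genes, and 20.8% and 17.5% above the upper quartile. Fabp1 and Fabp2, fatty acid binding proteins of enterocytes, read at the bottom of the scale on all arrays.

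Proliferation genes were split, 6 of 12 being higher and 6 lower, with list averages of 9.79 to 9.93 on knockout and 9.86 to 9.94 on control arrays. Tyms, which makes thymidylate, differed by -0.18 (adjusted p = 0.59). Paneth cell genes averaged 9.87 to 10.24 on knockout and 10.06 to 10.24 on control arrays (3 of 8 higher and 5 lower, median -0.06). Of the 8, 1 was higher and 4 were lower in all 3 pairs. Those shares were 15.7% and 15.2% of all genes, and 20.8% and 17.5% above the upper quartile. The receptor kinase gene Kit, also found in other cells, differed by 0.16 (adjusted p = 0.28). Pnliprp2, a lipase-related gene, differed by -0.50 and the lysozyme gene Lyz1 by -0.10, both with groups that do not overlap (adjusted p = 0.34 and 0.52). Goblet cell genes averaged 10.10 to 10.50 on knockout and 10.05 to 10.41 on control arrays (5 of 11 higher and 6 lower, median -0.01). Their differences ran from -0.07 (Clca1) to 0.29 (Muc2, adjusted p = 0.94 by limma), with Guca2a at 0.21 and the goblet cell factor Spdef at 0.11. Of the 11, 4 were higher and 0 lower in all 3 pairs, against 15.7% and 15.2% of all genes. By limma with the block, 4 had an unadjusted p under 0.05, against 10.9% of all genes and 25.8% of those above the upper quartile. Enteroendocrine genes averaged 9.12 to 9.32 on knockout and 9.21 to 9.38 on control arrays (5 of 13 higher and 8 lower, median -0.06), with the granule protein gene Chga at -0.17. Their average was lower on the knockout array in all 3 pairs, at 9.19, 9.12 and 9.32 on knockout arrays 1 to 3, against 9.21, 9.23 and 9.38 on control arrays 1 to 3. Of the 13, 7 were lower in all 3 pairs, against 15.2% of all genes and 17.5% of those above the upper quartile. With the block, 7 had an unadjusted p under 0.05 by limma, against 10.9% and 25.8%. Of the 13, 10 lay above that quartile. Tuft cell genes, none above the upper quartile, averaged 7.89 to 7.90 on knockout and 7.85 to 7.89 on control arrays (6 of 8 higher). None of these genes passed by limma, and their part in the stem cell marker values was not tested. Mesenchymal and endothelial genes stayed between 7.859 and 7.862 on knockout and between 7.857 and 7.866 on control arrays, and immune genes between 7.84 and 7.88 on knockout and between 7.85 and 7.87 on control arrays, both near the median of all probes.

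**Figure D4:**
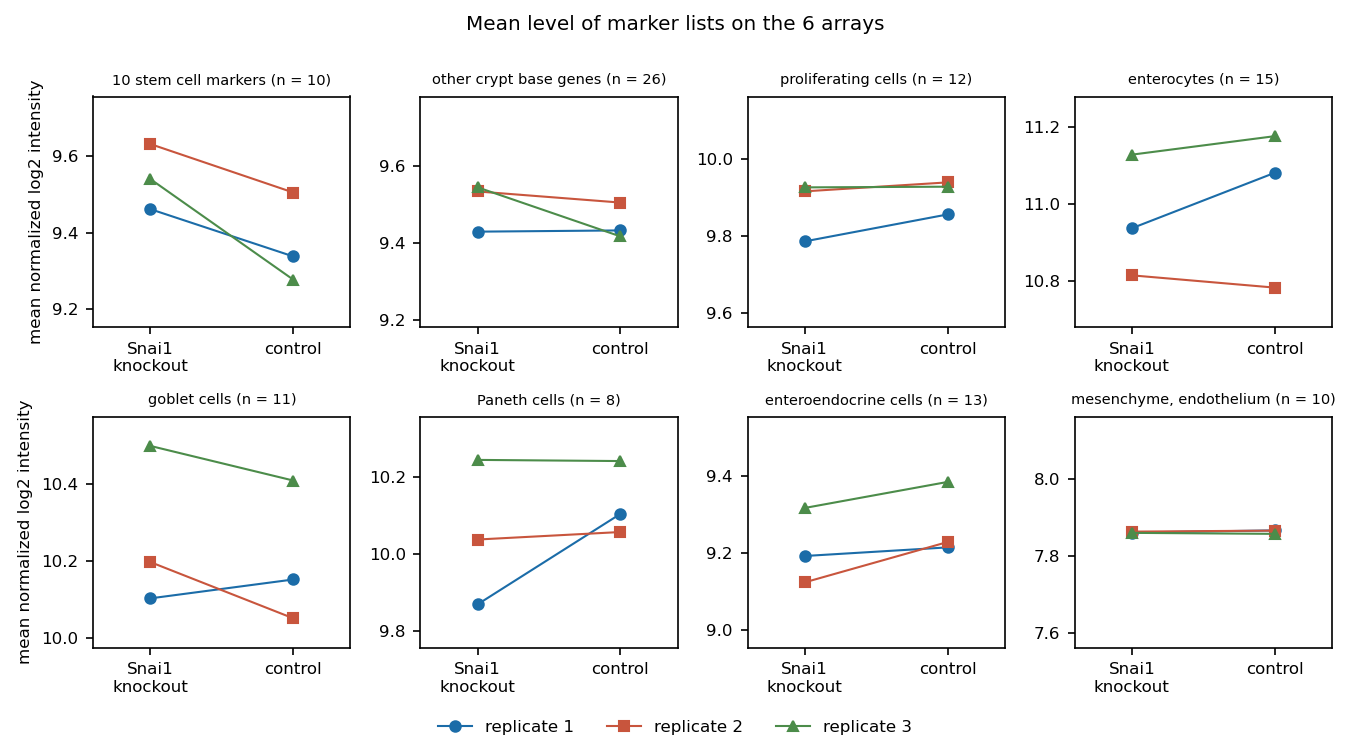
Mean normalised log2 intensity (vertical axis, each panel spanning the same height) of the measured genes of each marker list on knockout (left) and control (right) arrays, with lines joining arrays of the same replicate number. Replicate 2 is highest for the 10 stem cell markers and lowest for enterocytes in both groups, and mesenchymal and endothelial genes stay near 7.86.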

How the data were processed

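RNA was amplified to biotinylated cRNA for Illumina arrays, per the labels' protocols. The authors deposited 1 column of normalised values per array, read here as log2; their base, background treatment and programs stay unknown (not given in the sources used here). After sorting, arrays differed by 0.0019 at most, so distributions had been equalised before deposit. Of 45281 probes, 34885 had 1 gene in the platform's annotation, 18 several and 10378 none. Each gene took its brightest probe. Groups follow the titles. limma 3.58.1 (R 4.3.3; lmFit, eBayes, Benjamini-Hochberg over all genes, threshold 0.05) compared knockout with control without a block and, as an alternative, with the replicate number as a block. Deviations from group means correlated at r = 0.35, 0.33 and 0.46 for same-numbered arrays, against -0.33 to 0.003 for arrays of different numbers. The numbers were therefore taken to pair the samples, though the labels do not say what they share. Deviations within a group sum to 0, so some matching of arrays tends to come out positive, and these values do not establish the pairing. The median standard error above the upper quartile was 0.0671 without and 0.0457 with the block. The number of arrays limits precision. Genes named besides the markers are the 3 of lowest p in each stem cell or Wnt list, 1 bright gene in most other lists, and the nearest patterns. Fabp1, Fabp2, Pnliprp2, Lyz1, Clca1, Muc2 and Guca2a were chosen after their values were seen. Markers and lists were chosen with earlier results of these data known.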

Additional observations from a re-analysis of the deposited data

How the results depend on the processing

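No marker passed under any of the 17 alternatives in which it was tested (Smoc2 and Bmi1 were not among genes above the upper quartile), the lowest adjusted p being 0.069 (Lgr5, replicate block), and 165 of 168 marker values kept their direction. The 3 that did not were of Smoc2, which ran from -0.015 to 0.044 with 1 array left out. Averaging all probes of a gene lowered the median difference from 0.178 to 0.093, by construction since dim probes enter. With 1 array left out that median ran from 0.138 to 0.202, and 8 or 9 markers were higher. The count of genes called, 25 as reported, was 9 with the replicate block, 41 among genes above the upper quartile and 71 with a trended, robust variance (cause not tested). With 1 array left out it ran from 4 (without knockout replicate 3) to 23, with 6, 9, 13 and 15 without control replicates 1 and 3, knockout replicate 2 and control replicate 2. In the blocked fit, without pair 1, 2 or 3 (chosen after seeing the data), limma called 0, 4 and 0 genes, with 2437, 1935 and 1464 at an unadjusted p under 0.05. The block lowered probes called from 40 to 17, and changed no marker's call. Values below the upper quartile limit what can be seen of Smoc2 and, less so, of Bmi1, which lay just under it.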

Other observations

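Genes whose arrays moved most like those of a stem cell marker were sought among 6961 non-marker genes above the upper quartile, by the root-mean-square distance between values centred on each gene's mean over the 6 arrays. For Lgr5 the nearest was Pdk1, a kinase that restrains pyruvate entry into the citric acid cycle, at a distance of 0.066 against a median of 0.315 over these genes. Pdk1 read 10.17, 10.80 and 10.44 on knockout arrays 1 to 3, against 10.02, 10.41 and 10.09 on control arrays. Marcksl1, an actin-binding protein gene, and Pfkl, the liver-type phosphofructokinase gene, followed at 0.131 each, and 5 genes lay nearer to Lgr5 than Axin2, at 0.140. The numbers of genes nearer to Lgr5 than the other bright markers were 67 for Nav1, 82 for Olfm4, 507 for Ascl2, 946 for Rgmb, 1085 for Hopx and 2997 for Igfbp4. A gene constant over the 6 arrays would lie at 0.302 from Lgr5, and Igfbp4 lay at 0.307. These ranks therefore depend on how much a gene varies as well as on its pattern. For Olfm4 the nearest were Gtse1, a G2 and S phase protein gene (0.092), Phf20, a chromatin reader gene (0.095), and Ttpal (0.098), against a median of 0.287. Phf20 differed by 0.51 ± 0.09 and Ttpal by 0.34 ± 0.08 between knockout and control (SE; adjusted p = 0.23 and 0.34 by limma), and Phf20, Ttpal and Pdk1 share a chromosome with Snai1 (GRCm38.p6), as did 7.58% of the genes compared, while Marcksl1, Pfkl and Gtse1 do not. With 6 arrays many genes share a pattern, and these distances are descriptions.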
